A study of Arabidopsis thaliana with 6 samples.

Results

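Of 22746 Arabidopsis probe sets on the ATH1 array, 8 gave a signal of at least 150 on all 3 Col-0 arrays and under 100 on all 3 atsf1-2 arrays, with a Col-0 mean at least 2 times the atsf1-2 mean. A probe set is a group of short probes for 1 transcript, or in some cases for those of several genes. The selection left aside 3 probe sets by name, of which 1 would have met these limits. Of the 8, the platform annotation pairs 2 with a single gene, AT5G59130 and AT3G02480, and lists no gene for the other 6. AT5G59130 encodes a subtilase, and AT3G02480 a protein of the late embryogenesis abundant (LEA) family. The members were selected on these signals of both genotypes, so their difference is described here and was not tested as a finding.

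The samples were whole seedlings of Arabidopsis thaliana, harvested without treatment after 9 days on agar at 23 C, with a photoperiod of 16 h and nights of 8 h. The atsf1-2 seedlings carry a mutation in AtSF1, a protein of pre-mRNA splicing, in the Col-0 ecotype, and wild-type Col-0 seedlings were the control. Each genotype had 3 biological replicates with 1 array each. The nature of the atsf1-2 allele is not given in the sources used here, and no probe set is paired with AtSF1 alone (0 probe sets), so that gene could not serve as a check of the genotypes.

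SF1 proteins bind the branch point of introns early in spliceosome assembly. Subtilases are serine proteases that plants make as precursors, and most are secreted to the cell wall space, where they process or degrade proteins. LEA proteins are small, hydrophilic proteins that build up in maturing seeds and, in many cases, in vegetative tissue under water stress or abscisic acid, and many of them lie in the cytosol or nucleus. The compartment of the AT3G02480 protein and the substrates of the AT5G59130 protease are not taken up here. In RNA from whole seedlings, fewer cells that make a transcript and less transcript per cell cannot be told apart.

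Signals are on the authors' linear MAS5 scale, and all arrays had been scaled to nearly the same trimmed mean. The median signal of an array was 165 to 181 in atsf1-2 and 182 to 195 in Col-0. Across probe sets the log2 signals correlated at Pearson's r of 0.923 to 0.953 within atsf1-2, 0.937 to 0.961 within Col-0 and 0.915 to 0.953 between genotypes. These values are across genes, which are not independent replicates. A pair of arrays stood apart in the ratio of the 3' to the 5' signal of the actin control, which is lower where RNA is more intact. This ratio was 2.47 on atsf1-2 replicate 3 and 2.14 on Col-0 replicate 2, against 3.36 to 3.63 on the other arrays. By this measure the pair had the more intact RNA, and the other arrays the less intact. Of 15 root loci, 3 had a probe set of their own, and their summed signal was 15906 to 16812 in atsf1-2 and 15415 to 17545 in Col-0. Nearly all of this sum came from PYK10, with 15216 to 16161 in atsf1-2 and 14678 to 16811 in Col-0. Over all arrays EXPA7 gave 190 to 266 and EXPA18 391 to 529. Of 18 shoot photosynthesis loci, 2 had one, with sums of 36641 to 43198 in atsf1-2 and 32678 to 36214 in Col-0. Both tissues of a seedling were thus represented, and none of these 5 genes passed the limma threshold given below. Seed storage loci had no probe set paired with them alone (0 of 7).

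AT5G59130, the subtilase gene, was low in all mutant seedlings and steady in the wild type. Its signal was 65.0, 95.2 and 53.4 on the atsf1-2 arrays and 203, 231 and 228 on the Col-0 arrays. The means were 71.2 ± 21.6 in atsf1-2 and 220 ± 15.2 in Col-0 (SD, n = 3 for each). The Col-0 arrays lay close together, and the lowest of them was 2.13 times the highest atsf1-2 array. The log2 difference, atsf1-2 minus Col-0, was -1.67 ± 0.24 (SE from limma). It lay between -1.90 and -1.48 when single arrays were left out. With a pseudocount of 38.3 added to every signal it was -1.26, so its size depends on how such low signals are treated.

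AT3G02480, the LEA gene, showed the smaller difference of the named pair and a wider spread in the wild type. Its signal was 71.7, 87.9 and 74.2 on the atsf1-2 arrays and 258, 201 and 171 on the Col-0 arrays. The means were 77.9 ± 8.73 in atsf1-2 and 210 ± 44.5 in Col-0 (SD, n = 3 for each). Here the atsf1-2 arrays were the close ones, while Col-0 replicate 1 was the highest of its genotype. The log2 difference was -1.42 ± 0.22 (SE from limma), and between -1.55 and -1.26 without single arrays. With the same pseudocount of 38.3 it was -1.08. Each of the named genes had a single probe set of its own, so no second one was at hand for either.

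The lowest atsf1-2 signals among the 8 were those of a probe set with no listed gene, called unnamed a here. Its signal was 34.5, 30.5 and 3.08 on the atsf1-2 arrays and 328, 343 and 302 on the Col-0 arrays. The Col-0 arrays lay close together, far above all atsf1-2 arrays. With no detection calls, nothing shows the atsf1-2 signals to be above background, so the size of this difference is not read. It also turned on the signal of 3.08, since the log2 difference was -4.45 over all arrays and -3.32 without atsf1-2 replicate 3.

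Unnamed b, also without a listed gene, was likewise dim in the mutant. It gave 40.01, 35.8 and 40.1 on the atsf1-2 arrays and 158, 256 and 225 on the Col-0 arrays. The mutant arrays were nearly equal, with a mean of 38.6 ± 2.48 (SD, n = 3), while the Col-0 mean was 213 ± 50.5 (SD, n = 3). The log2 difference lay between -2.64 and -2.29 when single arrays were left out, but the same limit on reading its size applies.

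The other 4 probe sets without a listed gene, unnamed c to f, differed less, with log2 differences of -1.89 to -1.29. Their means were 61.8 to 71.6 in atsf1-2 and 173 to 255 in Col-0. Among these unnamed c gave 61.0, 73.9 and 64.1 in atsf1-2 and 164, 307 and 294 in Col-0, so that Col-0 replicate 1 stood well below the other wild-type arrays. Unnamed d gave 50.9, 88.8 and 65.9 in atsf1-2 and 199, 247 and 163 in Col-0. In this one the arrays of both genotypes were spread, with coefficients of variation of 27.9% in atsf1-2 and 20.8% in Col-0. Unnamed e gave 80.2, 73.3 and 31.8 in atsf1-2 and 190, 152 and 176 in Col-0. Its low value on atsf1-2 replicate 3 carried part of the difference, which was -1.59 over all arrays and -1.16 without that array. Unnamed f gave 60.2, 82.1 and 72.5 in atsf1-2 and 156, 213 and 158 in Col-0, the smallest difference of the 8.

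**Figure D1:**
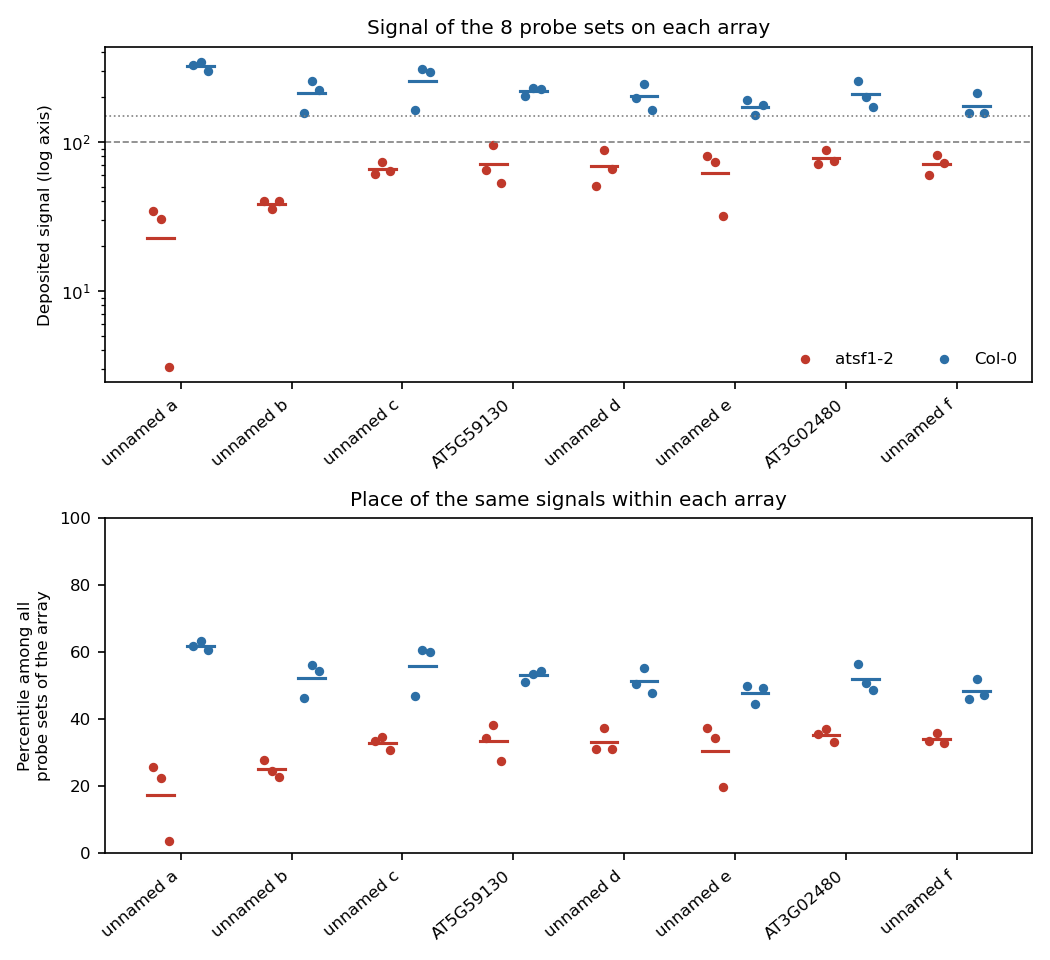
Deposited signal (upper panel, log axis) and percentile of that signal among all non-control probe sets of the same array (lower panel) for the 8 members, with 1 point per array and a bar at the mean of 3 arrays, atsf1-2 in red on the left and Col-0 in blue on the right of each pair. Dashed and dotted lines mark the limits of 100 and 150, and the point at 3.08 is atsf1-2 replicate 3 of unnamed a. Probe sets run from the largest to the smallest ratio of means, and unnamed a to f have no listed gene.

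The atsf1-2 signals of the members were low, but most did not lie at the bottom of the scale. Of 24 member signals in atsf1-2, 17 lay between 50 and 100, and the lowest was 3.08. They fell between percentiles 3.7 and 38.3 of their arrays, with a median member percentile of 29.1 to 35.3 per array. In Col-0 the member signals fell between percentiles 44.7 and 63.4, so the members were of middling brightness there. A percentile places a signal on its array and does not rank transcripts, since probe sets differ in how brightly they respond. Detection calls were not used here, and on each array 36.6% to 40.9% of all probe sets had signals under 100. The members are therefore described as low in atsf1-2, without a statement that their transcripts were absent.

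Single arrays did not rank the members alike. Among the atsf1-2 arrays, replicate 2 held the highest signal for 5 of the 8 members, replicate 1 for 2 and replicate 3 for 1. Among the Col-0 arrays, replicate 2 held the highest signal for 6 members, replicate 1 for 2 and replicate 3 for 0. Col-0 replicate 2 is one of the arrays that stood apart. Its 25th percentile of all signals was 50.3, against 31.6 and 32.0 on the other Col-0 arrays. On atsf1-2 replicate 3, which also stood apart, it was 45.9, against 32.4 and 36.8 on the other atsf1-2 arrays. That array held the highest signal of its genotype for only 1 member and the lowest for 3. The part of these array differences in the members' spread was not tested. The median coefficient of variation of a member was 21.6% in atsf1-2 and 19.7% in Col-0.

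The members can be placed among probe sets of like brightness in Col-0, as a description only, since the rule fixed their levels and a 2-fold difference. In the range of the members' Col-0 means, 173 to 324, 2919 probe sets had all Col-0 arrays at 150 or more. Their median log2 ratio of means, atsf1-2 over Col-0, was -0.13, and 40 of them, or 1.37%, had an atsf1-2 mean of at most 1/2 of the Col-0 mean. All 8 members are among these 40, and so is the probe set left aside by name that met the rule. The 2919 were picked by their Col-0 signals alone. Over the 8 members the median of the same ratio was -1.60. In the opposite direction, 10 probe sets were under 100 on all Col-0 arrays and at least 150 on all atsf1-2 arrays with a 2-fold difference of means. No probe set was left aside by name in that count, and the like count in the members' direction is 9. By the rule, the genotypes did not overlap for any member, and atsf1-2 lay below Col-0 without overlap for 14.0% of all 22746 probe sets.

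**Figure D2:**
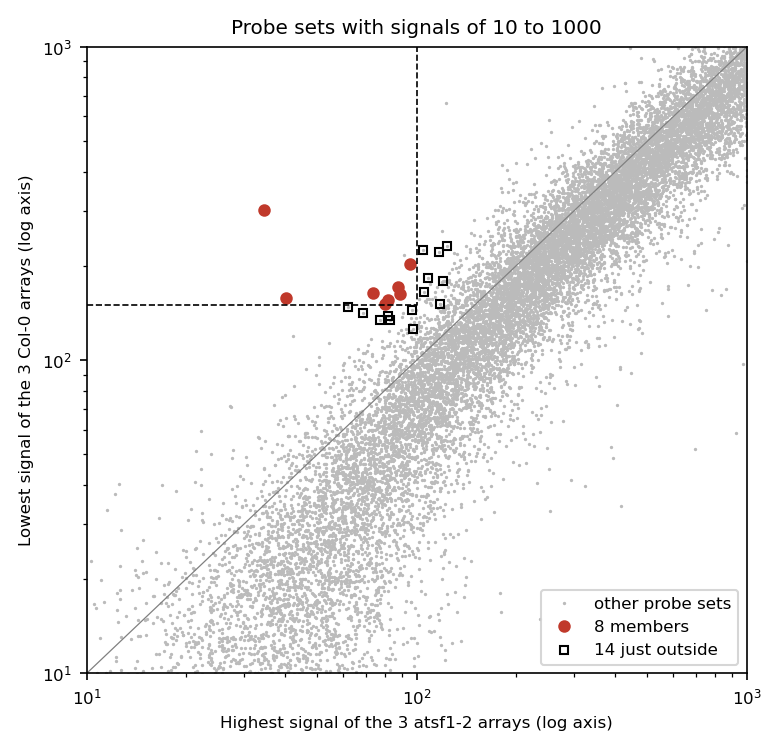
Highest signal of the 3 atsf1-2 arrays (horizontal, log axis) against the lowest signal of the 3 Col-0 arrays (vertical, log axis) for non-control probe sets with signals of 10 to 1000. Dashed lines bound the area above 150 and below 100, which holds the 8 members as red dots. Within these limits lie 10 probe sets, and those that are not members failed the 2-fold limit or were left aside by name. Open squares are the 14 probe sets that meet the rule only with 1 limit moved by 25, and unnamed a is the red dot farthest from the diagonal.

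Genotypes were also compared over the whole array with limma, a linear model with a shared estimate of the spread. It kept the 13648 probe sets whose mean log2 signal reached the 40th percentile and used a Benjamini-Hochberg adjusted p of 0.05 as threshold. Of the 8 members, 5 passed the filter, and only through their Col-0 signals. The rule held their atsf1-2 signals under 100, and the lowest mean signal kept was 104. The other 3, unnamed a, b and e, had too low a mean over both genotypes together. All 5 that were tested were called lower in atsf1-2, where 5.19% of all tested probe sets were lower, 3.00% higher and 8.19% either. The balance depended on the scaling, with 409 higher and 709 lower in the deposited one, 755 and 362 with median centring and 449 and 476 after quantile normalization, and the 5 members were called lower in each. Without the filter all 8 were called, with 1.93% of 22746 called lower. Since the rule used the same signals, these counts describe the members and add no evidence. The median log2 difference of the 5 was -1.58, and that of all tested probe sets -0.070. The replicates come from samples that the titles call biological replicates, and nothing in the labels says how they were separated.

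The limits of the rule cut through a continuous range. The members just inside were unnamed e and f, with lowest Col-0 signals of 152 and 156, and AT5G59130, with a highest atsf1-2 signal of 95.2. With the atsf1-2 limit raised by 25 another 7 probe sets entered, 5 of them named. Among these was WRKY22, a transcription factor of immune signalling, with 95.4 ± 19.5 in atsf1-2 and 193 ± 68.7 in Col-0 (SD, n = 3 for each). Its Col-0 mean turned on a signal of 272 on replicate 2, an array that stood apart, against 155 and 151 on the others. AT1G30700, a gene of the berberine bridge enzyme family, had 95.7 ± 19.5 in atsf1-2 and 231 ± 14.6 in Col-0 (SD, n = 3 for each). AT2G41480, which encodes a class III peroxidase, had 101 ± 7.06 in atsf1-2 and 209 ± 28.0 in Col-0 (SD, n = 3 for each). With the Col-0 limit lowered by 25 a different 7 entered, 5 of them named. One was AT2G19930, of the RNA-dependent RNA polymerase family, with 60.7 ± 1.15 in atsf1-2 and 182 ± 32.4 in Col-0 (SD, n = 3 for each), which missed the rule through a Col-0 signal of 148. These 4 were chosen after their values were seen. With quantile normalization or with all arrays scaled to one median, 5 of the 8 members stayed within the limits, AT5G59130, AT3G02480 and unnamed a, c and d.

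AT5G59130 lies among other subtilase genes, which asks whether the genes around it differed too. Of 10 listed loci of this cluster, 9 had a probe set of their own and 2 passed the filter, AT5G59130 and SBT4.12. SBT4.12 (AT5G59090), a subtilase, gave 654, 721 and 413 in atsf1-2 and 704, 640 and 658 in Col-0. Its genotypes overlapped, and its log2 difference of -0.20 ± 0.20 (SE) did not pass (limma adjusted p = 0.555). That difference turned to 0.044 without atsf1-2 replicate 3, the array with the low value. The other 7 subtilase probe sets, SBT4.13 next to AT5G59130 included, were dim on every array, with signals of 0.594 to 99.6. At such signals no difference was measured for them, and their order is not read.

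AT3G02480 can be set beside other LEA and dehydrin genes, whose proteins protect cells that lose water. Of 22 listed loci, 12 had a probe set of their own and 6 passed the filter. Of the 5 tested besides AT3G02480, 3 rose in atsf1-2 and none fell, where 3.00% of all tested probe sets were higher and 5.19% lower. The median log2 difference of these 5 was 0.77, and -0.070 over all tested probe sets. The list was written after AT3G02480 was known as a member and after results of several of these genes were known, so its direction is not independent evidence.

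AT5G53820, annotated to the same family as AT3G02480, gave 161, 160 and 245 in atsf1-2 and 88.4, 78.4 and 98.5 in Col-0. The genotypes did not overlap, and atsf1-2 was the higher one, opposite to AT3G02480. Its Col-0 signals all lay under 104, the lowest mean signal kept by the filter, so it was tested only through its atsf1-2 signals. Its log2 difference was 1.07 ± 0.23 (SE, limma adjusted p = 0.0206), and without this gene 2 of the other 4 tested rose. The call ended without any single Col-0 array or without atsf1-2 replicate 1 (limma adjusted p = 0.0511 to 0.0756), and with no filter on low values (limma adjusted p = 0.0545). DI21 (AT4G15910), a gene induced by drought, had 3596 ± 577 in atsf1-2 and 1907 ± 273 in Col-0 (SD, n = 3 for each; limma adjusted p = 0.0073). LTI30, a dehydrin, had a log2 difference of 0.77 ± 0.14 (SE, limma adjusted p = 0.00978), and did not pass when Col-0 replicate 3 was left out (limma adjusted p = 0.0514). COR47 and LEA4-5 did not pass, with log2 differences of 0.58 ± 0.17 and 0.43 ± 0.27 (SE). COR47 passed with array weights (limma adjusted p = 0.0424), with median centring (0.0211) and without atsf1-2 replicate 1 (0.0235). The other 6 LEA probe sets had signals of 0.652 to 85.2 and were not tested. For each of these the atsf1-2 mean was the lower one, as for AT3G02480, but at such dim signals no difference was measured. Their genotypes overlapped except for AtLEA4-1, with 12.2, 2.84 and 8.68 in atsf1-2 and 41.3, 41.1 and 37.3 in Col-0.

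**Figure D3:**
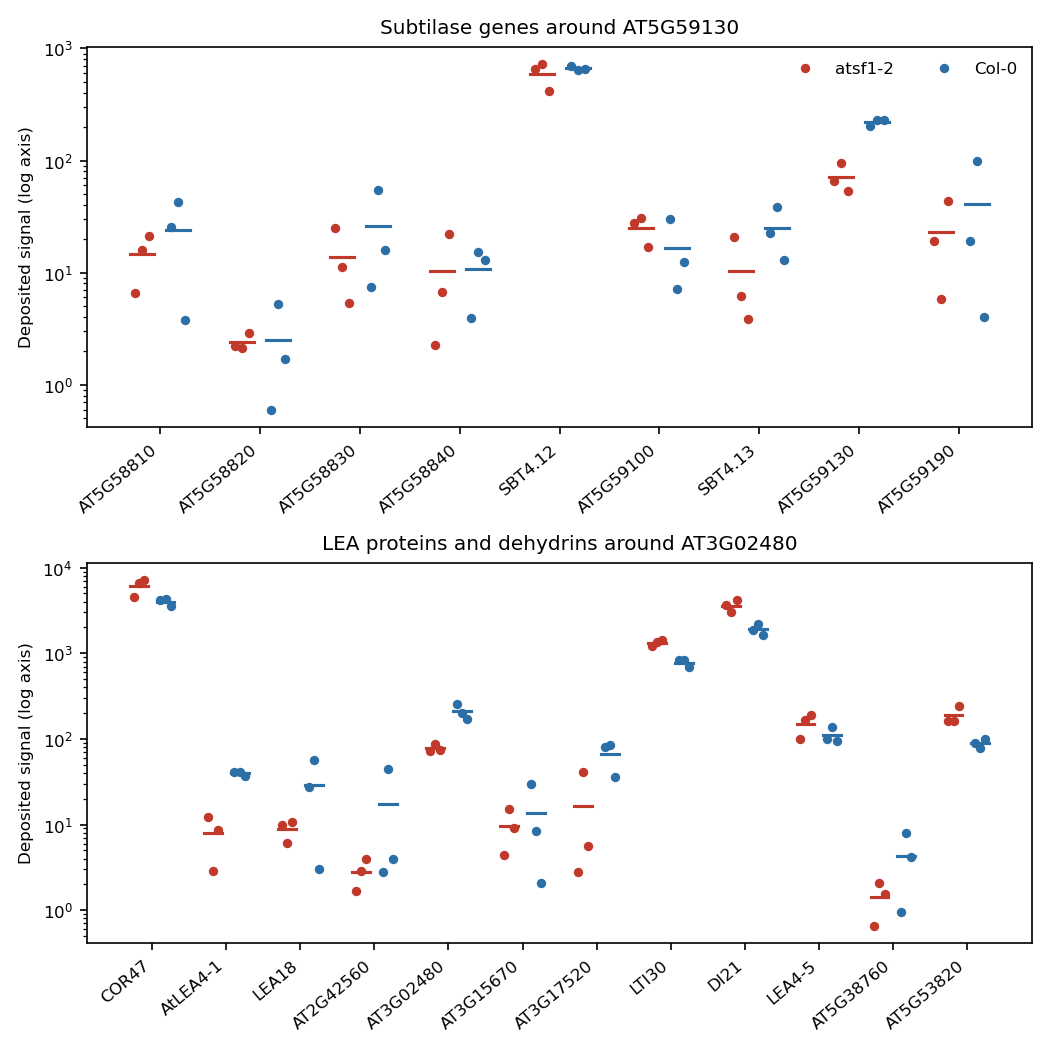
Deposited signals (log axis) of subtilase genes around AT5G59130 (upper panel) and of LEA and dehydrin genes with a probe set of their own (lower panel), with 1 point per array and a bar at the mean of 3, atsf1-2 in red on the left and Col-0 in blue on the right of each pair. AT5G59130 and AT3G02480 are lower in atsf1-2, while AT5G53820, LTI30 and DI21 are higher there, and heights cannot be compared between genes.

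The genes next to the named members on the chromosome gave no call. All 4 neighbouring protein-coding genes had a probe set, and 3 were tested. None passed limma's adjusted threshold (0 of 3), and 1 had an unadjusted p under 0.05. That gene was AT5G59140, next to AT5G59130, with 1901 ± 400 in atsf1-2 and 1389 ± 65.0 in Col-0 (SD, n = 3 for each; limma adjusted p = 0.104). Its difference ran opposite to that of AT5G59130. Next to AT3G02480, SAMDC, which encodes an enzyme of polyamine synthesis, had a log2 difference of -0.23 ± 0.12 (SE) and AT3G02490 one of -0.20 ± 0.18 (SE). The fourth neighbour, SBT4.13, was too dim to be tested. With array weights AT5G59140 passed, with a log2 difference of 0.36 (limma adjusted p = 0.0439).

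Families of probe sets that lay near the limits or were left aside by name also held lower genes. Against 5.19% lower and 3.00% higher over all tested probe sets, 4 of 7 tested tropinone reductase-like genes were lower and none higher, and 1 of the 4 was left aside by name. The others were AT2G29290, AT2G29310 and AT2G29320, with log2 differences of -0.93 ± 0.11, -1.14 ± 0.16 and -1.13 ± 0.21 (SE). Of 7 tested SET domain genes related to Rubisco methyltransferases, 3 were lower and none higher, and 1 of the 3 is the probe set left aside by name that met the rule. The others were AT3G07670 with -0.97 ± 0.16 (SE) and AT3G55080 with -0.80 ± 0.20 (SE, limma adjusted p = 0.0326). The call of AT3G55080 ended in 9 of 14 alternatives, among them quantile normalization (limma adjusted p = 0.0647) and no filter (0.0717). The median log2 difference was -0.93 for the first family and -0.26 for the second. Counts and medians of both families include the probe sets left aside by name. Those passed the filter only through their Col-0 signals, so their calls add no evidence about the families. Of 6 RNA-dependent RNA polymerase loci, AT2G19930 alone had a probe set of its own. It passed the filter through its Col-0 signals and nearly met the rule, so its lower signal, given above, says nothing of that family. These lists were written with such results known.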

How the data were processed

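The authors derived an intensity for each probe set, linear in scale, and used MAS5 and Affymetrix Expression Console 1.2 for it, as the submitters' processing notes say. Their settings were not given in the sources used here, detection calls were not used, and 300 ng of RNA were labelled per sample, per the labels' protocols. The deposited intensities were used without further scaling. Of 22810 probe sets, 64 were controls. The platform annotation names 1 gene for 13513 of the rest, several for 503 and none for 8730, and 13436 were matched by gene identifier to RefSeq (TAIR10.1), which was used for names and neighbours only. No coordinates are printed, because no build is given for the arrays.

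The rule was applied to the deposited signals. Log2 signals were fitted with limma 3.58.1 in R 4.3.3 (lmFit, eBayes with a trend, two-sided, Benjamini-Hochberg), after a filter at the 40th percentile, and the fit was tested on simulated data. Standard errors are limma's. The members, lists and tests were chosen with earlier results of these data known. Every member with 1 listed gene is named, and so are list members past the threshold, other than the 2 whose probe sets the rule leaves aside by name. Members without a listed gene carry letters in order of their ratio of means. Lists of flower and pollen loci (1 of 12 measured, at 3.70 to 24.4 on all arrays) served as a check of dim signals. Alternatives were other filters, limits, scalings and variance models, a pseudocount of 38.3, the replicate number as a block and leaving out arrays. With 3 arrays per genotype, the number of arrays limits the precision.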

Additional observations from a re-analysis of the deposited data

How the results depend on the processing

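The rule was met by 5 probe sets after quantile normalization, 5 after median scaling, 2 with a Col-0 minimum of 200, 3 with an atsf1-2 maximum of 75, 15 with the maximum raised by 25 and 15 with the Col-0 minimum lowered by 25. Leaving out arrays loosens the rule by construction. It then held for 9 to 20 probe sets, with 13, 20 and 15 without atsf1-2 replicate 1, 2 and 3, 12 without Col-0 replicate 2, 15 without Col-0 replicate 3, and 17 without both arrays that stood apart. All 8 members were among them each time. The settings with the lowered Col-0 minimum and without both arrays were added after the data were seen. The 5 tested members stayed past the limma threshold under every alternative that tested them, and 8 passed with no filter. None was tested with the filter at the 60th percentile, where no value could be given. Their median log2 difference was -1.17 with the pseudocount, and -1.79 to -1.39 without single arrays, -1.79 being that without atsf1-2 replicate 2. AT5G59130 and AT3G02480 kept their sign and call in 14 of 14 alternatives each. The rule placed every Col-0 signal of a member above all its atsf1-2 signals, so leaving out arrays could not turn the sign. For the members these counts add no evidence. Of the neighbours, 1 passed with array weights. SBT4.12 changed sign without atsf1-2 replicate 3 (0.044) and without both arrays that stood apart (0.014), and ran from -0.36 to 0.044 without single arrays. AT3G55080 lost its call in 9 of 14 alternatives, and AT2G29320 in 1 of 14, without Col-0 replicate 3 (limma adjusted p = 0.0538).

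Over all probe sets, 409 were higher and 709 lower. The counts were 947 and 1713 with array weights, 755 and 362 with median centring, 267 and 439 with no filter, 271 and 587 by eBayes without trend, and 449 and 476 after quantile normalization. The lower share of calls was thus 63.4% in the deposited scaling, 51.5% after quantile normalization and 32.4% with median centring, which moved the median log2 difference by 0.14. Without single arrays there were 130 to 463 higher and 151 to 777 lower. Counts under 2/3 of those of all arrays came without Col-0 replicate 1 (140 and 151), replicate 2 (154 and 261) or replicate 3 (142 and 204) and without atsf1-2 replicate 1 (130 and 221). With the replicate block there were 171 higher and 263 lower, the 5 tested members still passed, and AT3G55080 did not (limma adjusted p = 0.0795). Deviations of same-numbered arrays correlated at 0.10, -0.19 and -0.21, so the numbers were not taken as a pairing. What causes these shifts was not tested.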
